A study of Mus musculus with 6 samples.

Results

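Chemokine and chemoattractant receptors were followed in murine bone-marrow-derived macrophages (BMDMs) with and without excess NaCl. They were the 9 genes *Cx3cr1*, *Cxcr4*, *Ccr1*, *Ccr2*, *Cmklr1*, *C5ar1*, *C3ar1*, *Fpr1* and *Fpr2*, chosen by gene symbol, and all 9 were among the 15903 genes tested, out of 57010 in the count table. BMDMs are macrophages grown from bone marrow in the presence of the growth factor M-CSF. Marrow came from 3 *Cx3cr1GFP* mice on the C57BL/6J background and was cultured for 7 days with 10 ng/ml M-CSF in both groups. Adherent cells of each mouse were left unstimulated (control, n = 3) or received 62 mM excess NaCl for 24 h (NaCl, n = 3), and polyadenylated RNA was sequenced in 6 libraries. All mice carried a GFP sequence in the *Cx3cr1* locus, and the sources used here do not state whether a single copy or both copies of the gene were altered. Counts on *Cx3cr1* can therefore include RNA from the altered allele. The 6 libraries hold no control for osmolarity, so NaCl and raised osmolarity cannot be told apart.

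These receptors are G protein-coupled receptors with a serpentine fold through the plasma membrane. They couple chiefly to inhibitory G proteins, and steer a leukocyte along a gradient of a chemokine, a complement fragment, chemerin or a bacterial peptide. In the monocyte lineage, Ccr2 is the receptor by which inflammatory monocytes leave the bone marrow, Cx3cr1 marks patrolling monocytes and many tissue macrophages, and Cxcr4 holds leukocytes in the marrow. C5ar1 and C3ar1 read the complement fragments C5a and C3a, and the formyl peptide receptors read products of bacteria and damaged mitochondria.

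Total counts per library ranged from 4088065 (NaCl replicate 3) to 20123570 (control replicate 3). The low total of NaCl replicate 3 widens the counting error of the rare receptors in that library. All 8 macrophage markers examined were detected, and *Adgre1*, which encodes F4/80, was at 1263 to 1816 CPM, where CPM are counts scaled to a library size of 1000000 with TMM factors. NaCl was compared with control by edgeR's quasi-likelihood test, with Benjamini-Hochberg adjustment over the whole table of tested genes and a threshold of 0.05. The labels give the same 3 mice in both groups, so each result is also given with the mouse as a replicate block wherever the call differs.

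In NaCl-treated BMDMs, the receptors differed in direction. With the mouse as a replicate block, *Cxcr4* rose 2.12-fold, *Cmklr1* 1.95-fold and *Cx3cr1* 1.67-fold, while *Ccr1* fell to 0.431 times its control level. *C5ar1*, *C3ar1*, *Ccr2*, *Fpr1* and *Fpr2* did not pass the threshold in either fit. Without the block, only *Ccr1* passed. Thus 0 of the 9 receptors were higher and 1 was lower without the block, against 0.478% and 0.176% of all genes tested, and 3 were higher and 1 lower with it, against 4.6% and 4.3% of all genes. At an unadjusted p under 0.05 without the block, 5 of the 9 passed, against 12.6% of all genes. In DESeq2, which the authors used, 3 were higher and 1 was lower without the block, against 1.54% and 0.975% of all genes, and again 3 and 1 with the block, against 2.84% and 2.23%. The libraries of the groups did not overlap for 4 of the 9 receptors, against 19% of all genes, with 2 receptors higher (8.92% of all genes) and 2 lower (10.1%). Within mice, 5 receptors were higher in CPM with NaCl in 3 of 3 mice and 2 were lower in 3 of 3, with no minimum difference set, against 20.1% and 23.4% of all genes. For *Fpr2*, among the 5, mouse 2 had 20 counts in each library and a log2 ratio of only 0.00091. The median log2 fold change of the 9 was 0.13, against -0.0065 over all genes. This median is the value of *Fpr2*, a receptor with few counts, and does not show a shared shift of the receptors. In bulk RNA, fewer cells expressing a receptor and less of its RNA per cell cannot be told apart.

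**Figure D1:**
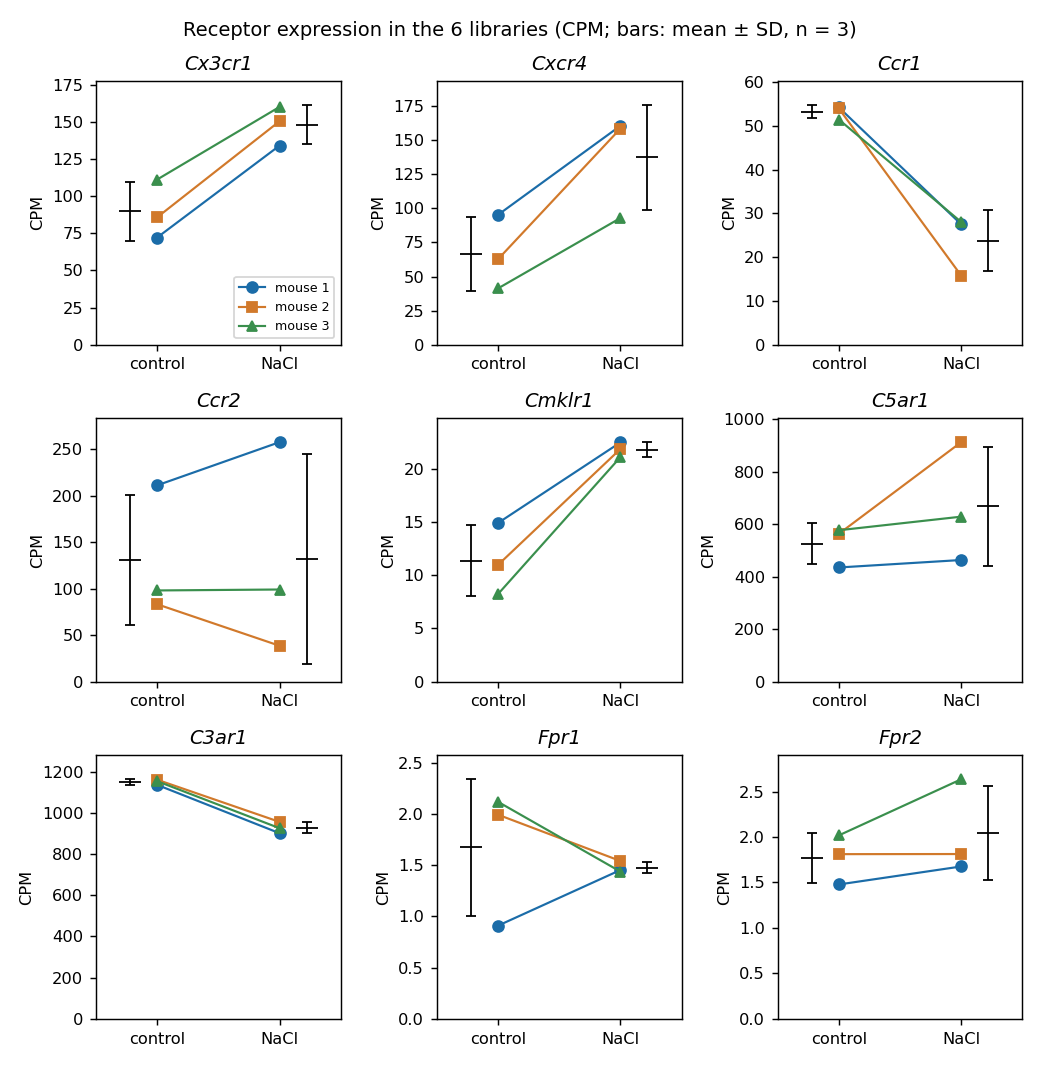
Expression of the 9 receptors in CPM (y axis from 0) in control and NaCl libraries, with a line for each mouse and the mean ± SD of 3 libraries beside each group. The groups of *Cx3cr1*, *Ccr1*, *Cmklr1* and *C3ar1* do not overlap, and the lines of *Ccr2* run in different directions.

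*Cx3cr1* (ENSMUSG00000052336.8, chromosome 9) encodes the receptor for the membrane-bound chemokine fractalkine. In mice 1, 2 and 3 it stood at 72.1, 85.7 and 111 CPM without NaCl and at 134, 150.4 and 160.02 CPM with NaCl. Every NaCl library lay above every control library, and mouse 3 was highest and mouse 1 lowest in both groups. The mean went from 89.6 ± 19.8 to 148 ± 13.2 CPM (SD, n = 3 each), and the log2 ratio within mice 1, 2 and 3 was 0.89, 0.81 and 0.53. This gave a log2 fold change of 0.72 (SE 0.17), which did not pass in edgeR (adjusted p = 0.111). Blocking on the mouse left the estimate at 0.74 (SE 0.12), which passed (adjusted p = 0.000137). A stretch of 1.7% of its exonic bases in GENCODE M21 overlaps *Gm33858* on the opposite strand, which unstranded counting cannot separate.

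*Cxcr4* (ENSMUSG00000045382.7, chromosome 1) encodes the receptor for Cxcl12, the chemokine that retains cells in the marrow. Its level in mice 1, 2 and 3 was 95.3, 62.7 and 41.3 CPM without NaCl and 161, 159 and 92.9 CPM with NaCl. The groups overlapped, because mouse 3 with NaCl lay just under mouse 1 without it, but the level was higher with NaCl in 3 of 3 mice. The order of the mice was the reverse of that for *Cx3cr1*, with mouse 1 highest and mouse 3 lowest in each group. The log2 ratio within mice 1, 2 and 3 was 0.75, 1.34 and 1.17. In edgeR the estimate was 1.06 (SE 0.30, adjusted p = 0.172). Once differences between mice were fitted as a block it was 1.09 (SE 0.13, adjusted p = 2.01e-06).

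*Cmklr1* (ENSMUSG00000042190.13, chromosome 5) encodes the receptor for the adipokine and chemoattractant chemerin. Control libraries of mice 1, 2 and 3 held 14.9, 10.96 and 8.22 CPM of it, resting on 131, 121 and 163 counts. Their NaCl libraries held 22.5, 21.8 and 21.1 CPM, resting on 201, 241 and 88 counts. The control libraries differed 1.81-fold among themselves and the NaCl libraries 1.07-fold, and the groups did not overlap. The edgeR estimate on the log2 scale was 0.96 (SE 0.22, adjusted p = 0.0962), and blocking on the mouse gave 0.97 (SE 0.16, adjusted p = 0.000267). Without the block it passed once control replicate 1, the highest control, was left out (log2 fold change 1.202, adjusted p = 0.0458). It did not pass in edgeR with any other single library left out. There the adjusted p ran from 0.102 without NaCl replicate 1 to 0.436 without control replicate 2, at log2 fold changes from 0.77 to 0.98.

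*Ccr1* (ENSMUSG00000025804.6, chromosome 9) encodes a receptor for inflammatory CC chemokines such as Ccl3 and Ccl5. The 3 control libraries were close to each other, at 54.2, 53.99 and 51.5 CPM in mice 1, 2 and 3, whose NaCl libraries had 27.5, 15.8 and 28.03 CPM. Every NaCl library was below every control library, and mouse 2 with NaCl was the lowest of all. The mean went from 53.2 ± 1.54 to 23.8 ± 6.93 CPM (SD, n = 3 each). *Ccr1* fell by 1.18 on the log2 scale (SE 0.21, edgeR adjusted p = 0.0455), and by 1.22 when blocked on the mouse (adjusted p = 4.43e-06). Without the block this call rested on every library but NaCl replicate 1, since the adjusted p from edgeR was 0.06798, 0.297 and 0.167 without control replicates 1, 2 and 3, and 0.05003 and 0.154 without NaCl replicates 2 and 3. The log2 fold change in these 5 fits was -1.16, -1.16, -1.19, -0.93 and -1.30 in that order. Calls over all genes also became fewer, at 46, 8, 9, 22 and 9 higher and 25, 1, 1, 0 and 0 lower. With all libraries, 76 genes were higher and 28 lower. The adjusted p of *Ccr1* was 0.0636 with total count scaling and 0.0515 with the filter filterByExpr, at a log2 fold change of -1.16 in each. In all 8 fits with the block, *Ccr1* stayed past the threshold, with log2 fold changes from -1.36 to -0.92.

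**Figure D2:**
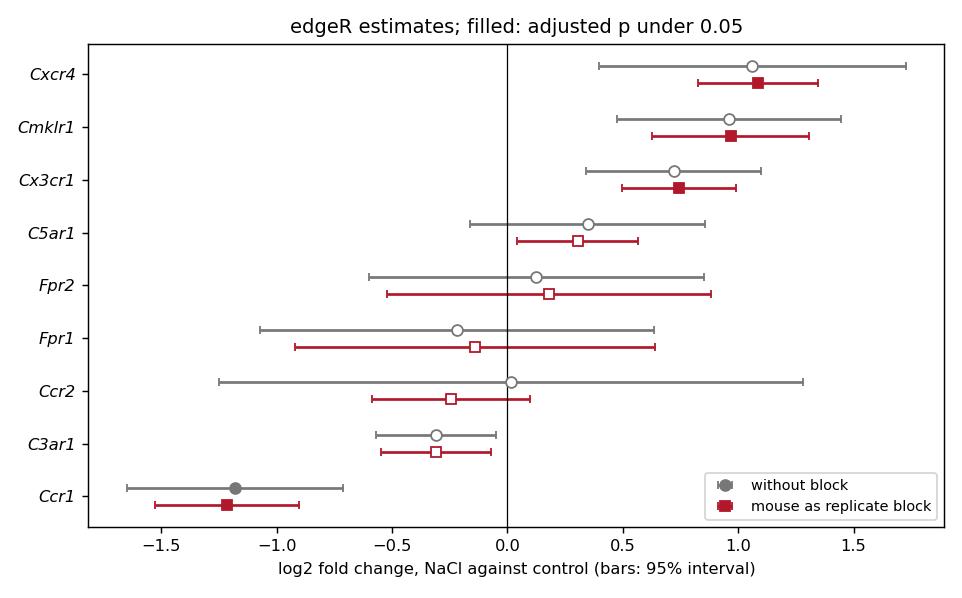
Log2 fold change of each receptor, NaCl against control, from edgeR without a block (circles) and blocked on the mouse (squares), with 95% intervals and filled symbols where the adjusted p is under 0.05. The estimates of the fits lie close together except for *Ccr2*, and the intervals of *Cxcr4*, *Ccr2* and *C5ar1* narrow most with the block.

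*Ccr2* (ENSMUSG00000049103.15, chromosome 9), the receptor for Ccl2, differed between mice far more than between treatments. Without NaCl, mice 1, 2 and 3 had 211, 83.3 and 98.2 CPM, and with NaCl they had 258, 38.7 and 99.2 CPM. Mouse 1 was highest in both groups, mouse 2 was the lowest in both, and the 3 mice went in different directions with NaCl, by 0.29, -1.10 and 0.015 on the log2 scale. The NaCl libraries spanned a 6.65-fold range. Its log2 fold change in edgeR was 0.016 (95% interval -1.25 to 1.28, adjusted p = 0.997), and -0.25 in the blocked fit (95% interval -0.59 to 0.098, adjusted p = 0.431). Its sign depended on single libraries, being -0.22 without control replicate 2, -0.15 without control replicate 3 and -0.95 without NaCl replicate 1. The 7 dendritic cell markers summed to 46.4 and 58.3 CPM in control and NaCl libraries of mouse 1, and to between 18.3 and 24.9 CPM in the libraries of mice 2 and 3. Most of that sum was the class II gene *H2-Ab1*, at 42.0 and 53.9 CPM in mouse 1, while *Flt3*, *Zbtb46* and *Clec9a* had at most 11 counts in any library. The part of such cells in the *Ccr2* values was not tested.

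The anaphylatoxin receptors had small differences of opposite sign. *C3ar1* (ENSMUSG00000040552.9, chromosome 6), which reads C3a, was at 1135, 1160.4 and 1153 CPM in mice 1, 2 and 3 without NaCl, and with NaCl at 901, 956 and 925 CPM. These groups did not overlap, and the log2 ratio within mice was -0.33, -0.28 and -0.32, the narrowest spread of the 9 receptors (SD 0.0277). *C3ar1* passed neither test, at -0.31 in edgeR (95% interval -0.57 to -0.049, adjusted p = 0.314) and -0.31 in the blocked fit (adjusted p = 0.0977). With the block it passed in edgeR when mouse 2 was left out (adjusted p = 0.0202), but not without mouse 1 or mouse 3 (adjusted p = 0.542 and 0.323). *C5ar1* (ENSMUSG00000049130.7, chromosome 7), the receptor for C5a, was at 436, 564 and 577 CPM in the control libraries and at 464, 913 and 629 CPM in the NaCl libraries of mice 1, 2 and 3. The groups overlapped, and mouse 2 with NaCl stood above the other 5 libraries. For *C5ar1*, edgeR gave a log2 fold change of 0.35 (95% interval -0.16 to 0.86, adjusted p = 0.586), and 0.30 in the blocked fit (95% interval 0.042 to 0.57, adjusted p = 0.148). It was 0.062 without NaCl replicate 2.

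The formyl peptide receptors were close to the lower limit of detection. *Fpr1* (ENSMUSG00000045551.8, chromosome 17) had 8, 22 and 42 counts in mice 1, 2 and 3 without NaCl, and 13, 17 and 6 with it. *Fpr2* (ENSMUSG00000052270.8, chromosome 17), which also reads annexin A1, had 13, 20 and 40 counts in the control libraries and 15, 20 and 11 in the NaCl libraries. In CPM, *Fpr1* was at 1.67 ± 0.665 in control and 1.48 ± 0.0559 in NaCl, and *Fpr2* at 1.77 ± 0.272 and 2.04 ± 0.519 (SD, n = 3 each). The groups of each gene overlapped. At this depth the 95% interval of the fold ran from 0.475 to 1.55 for *Fpr1* and from 0.661 to 1.802 for *Fpr2*, with adjusted p-values of 0.864 and 0.967 from edgeR. The sign of the log2 fold change of *Fpr1* turned without control replicate 3 (0.019), and that of *Fpr2* without NaCl replicate 3 (-0.038). Of the 75-base windows of *Fpr2*, 20.9% also occur in *Fpr3* or *Gm5966*, so part of its reads cannot be assigned, while *Fpr3* itself had 0 counts in the 6 libraries.

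To compare receptors with each other, CPM was divided by the exonic length of each gene in kb (GENCODE M21). *C3ar1* and *C5ar1* were far above the rest in control BMDMs, at 267 ± 2.999 and 205 ± 30.5 CPM per kb (SD, n = 3 each). *Cxcr4* followed at 36.7 ± 15.05 CPM per kb, then *Cx3cr1* at 19.9 ± 4.399, *Ccr2* at 19.4 ± 10.3 and *Ccr1* at 18.8 ± 0.544 CPM per kb. The last 3 were not separated, since their order differed between control libraries. *Cmklr1* was at 3.33 ± 0.984 CPM per kb, and *Fpr2* and *Fpr1* were lowest at 1.37 ± 0.210 and 1.26 ± 0.502 CPM per kb, without a fixed order between them. With NaCl, *Cxcr4* was at 76.01 ± 21.3, *Cx3cr1* at 32.9 ± 2.92 and *Ccr1* at 8.39 ± 2.44 CPM per kb. *Cxcr4* was above *Cx3cr1* in 2 of 3 control and 3 of 3 NaCl libraries, and *Cx3cr1* above *Ccr2* in 2 of 3 libraries of each group. *C3ar1* exceeded *C5ar1* in 3 of 3 control libraries and in 1 of 3 NaCl libraries. The summed level of the 9 receptors was 572 ± 12 CPM per kb in control and 622 ± 84.6 CPM per kb in NaCl, with overlapping groups. Within that sum, the share of *C3ar1* was 46.7% ± 0.483 in control and 34.97% ± 3.54 in NaCl, and that of *Cxcr4* was 6.45% ± 2.78 and 12.3% ± 3.44. The groups of *Cxcr4* overlapped, at 9.44% in control replicate 1 and 8.85% in NaCl replicate 3. The share of *C5ar1* was 35.7% ± 4.64 in control and 41.2% ± 8.79 in NaCl. Each share also depends on the levels of the other receptors in the sum.

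**Figure D3:**
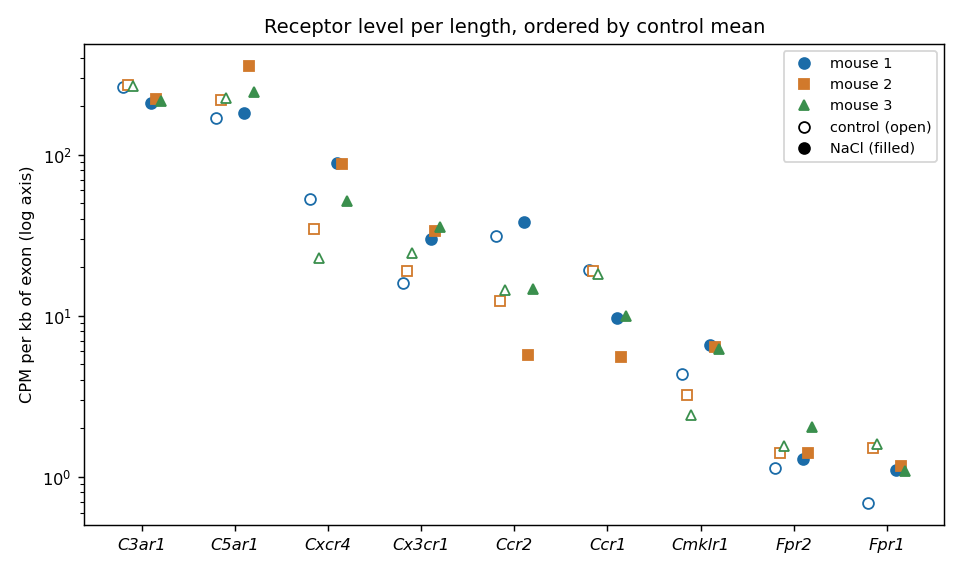
Level of each receptor in CPM per kb of exon (log axis) in each library, open for control and filled for NaCl, with a symbol for each mouse and genes ordered by the control mean. *C3ar1* and *C5ar1* lie above 160 CPM per kb in every library, and *Fpr2* and *Fpr1* lie at or below 2.03 CPM per kb.

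The promoters of the 4 receptors that passed with the block are shown, so that the letters at their start sites can be read beside the values. Of these, only *Ccr1* also passed in edgeR without the block. Each runs from 250 bases before the annotated start to 50 bases from it, 5′ to 3′ on the strand of the gene, and was taken from RefSeq (GRCm38.p6). The regions are chr9:120068247-120068546 (minus strand) for *Cx3cr1*, chr1:128592250-128592549 (minus strand) for *Cxcr4*, chr5:113643554-113643853 (minus strand) for *Cmklr1* and chr9:123968643-123968942 (minus strand) for *Ccr1*. Capitals mark matches on either strand to TGGAAA, the first bases of the element bound by the osmotic regulator NFAT5, to GAGGAA, found in sites of the macrophage factor PU.1, and to ACGTG, found in sites of hypoxia-inducible factors.
Cx3cr1: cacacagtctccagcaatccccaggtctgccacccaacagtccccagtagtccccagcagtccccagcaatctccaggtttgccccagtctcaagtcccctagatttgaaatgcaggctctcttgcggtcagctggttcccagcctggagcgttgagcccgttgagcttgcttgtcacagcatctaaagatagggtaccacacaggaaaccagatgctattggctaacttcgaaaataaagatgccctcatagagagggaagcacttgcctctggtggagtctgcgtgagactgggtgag
Cxcr4: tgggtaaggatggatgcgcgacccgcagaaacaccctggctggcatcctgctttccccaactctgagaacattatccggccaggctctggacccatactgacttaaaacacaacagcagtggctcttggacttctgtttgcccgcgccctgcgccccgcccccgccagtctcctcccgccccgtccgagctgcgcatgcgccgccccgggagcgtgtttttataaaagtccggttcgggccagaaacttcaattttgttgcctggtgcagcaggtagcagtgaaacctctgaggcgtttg
Cmklr1: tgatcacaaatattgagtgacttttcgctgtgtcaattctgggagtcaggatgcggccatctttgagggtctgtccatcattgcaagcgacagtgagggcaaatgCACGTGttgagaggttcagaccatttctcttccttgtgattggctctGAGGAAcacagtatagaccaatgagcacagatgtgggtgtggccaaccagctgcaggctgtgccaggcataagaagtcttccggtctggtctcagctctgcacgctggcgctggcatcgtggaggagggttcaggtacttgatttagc
Ccr1: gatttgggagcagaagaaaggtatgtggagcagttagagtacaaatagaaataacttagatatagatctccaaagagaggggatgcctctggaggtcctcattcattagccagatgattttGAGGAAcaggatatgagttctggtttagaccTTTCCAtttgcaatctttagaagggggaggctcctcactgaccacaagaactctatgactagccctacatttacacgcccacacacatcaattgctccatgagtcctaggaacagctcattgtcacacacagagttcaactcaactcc
The windows of *Cx3cr1* and *Cxcr4* held none of these letters. That of *Cmklr1* held the PU.1 letters at position -98 and the hypoxia letters on both strands, at -145 and -144, where the matches overlap as a palindrome. That of *Ccr1* held the PU.1 letters at -129 and the NFAT5 letters on the opposite strand at -98. Positions count from the start of the gene and give the leftmost base of a match. Of 32851 RefSeq promoters of this length, 21.4% held the NFAT5 letters, 28.3% the PU.1 letters and 19.6% the hypoxia letters. The NFAT5 letters also occurred in the windows of *Ccr2*, *C5ar1*, *C3ar1* and *Fpr1*, which did not pass the test. The window of *Cxcr4* was the richest in G and C of the 9, at 59.3%, and that of *Ccr2* the poorest, at 38.0%.

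How much of a receptor's variation lay between treatments and how much between mice differed among the 9. Of the variance of log2 CPM over the 6 libraries, 97.2% lay between treatments for *C3ar1*, 83.2% for *Ccr1*, 79.7% for *Cmklr1*, 78.2% for *Cx3cr1* and 61.0% for *Cxcr4*. By contrast, 86.6% lay between the 3 mice for *Ccr2*, 77.1% for *Fpr2* and 64.6% for *C5ar1*. The share of *Fpr2* rests on 11 to 40 counts per library, so it includes counting error. For *Cxcr4*, 35.9% lay between mice and 3.12% was left over. These shares describe log2 CPM, whereas the blocked fit tests counts with a variance moderated over all genes. For *Fpr1*, with 6 to 42 counts per library, 51.7% lay between mice and 46.8% was left over.

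Ratios of counts within a library do not depend on how libraries are scaled, and 3 such ratios were compared. The log2 ratio of *C5ar1* to *C3ar1* counts was -1.38, -1.04 and -0.998 in mice 1, 2 and 3 without NaCl, and -0.96, -0.065 and -0.56 with it. It was higher with NaCl in 3 of 3 mice and the groups did not overlap, with a difference of 0.61 (exact permutation test, two-sided, p = 0.1, which is the lowest value 3 libraries against 3 can give). The ratio of *Cx3cr1* to *Ccr2* was also higher with NaCl in 3 of 3 mice, by 0.61, 1.92 and 0.51 on the log2 scale within mice 1, 2 and 3. Among controls it ranged from -1.55 in mouse 1 to 0.18 in mouse 3, and the groups overlapped (difference 1.01, exact permutation test, two-sided, p = 0.4). That difference rested on single libraries, being 0.46 without control replicate 1, 1.77 without NaCl replicate 1 and 0.32 without NaCl replicate 2, while the difference for *C5ar1* to *C3ar1* was 0.38 without NaCl replicate 2. The ratio of *Fpr1* to *Fpr2* went up in mouse 1 and down in mice 2 and 3 (difference -0.26, exact permutation test, two-sided, p = 0.5), and with single libraries left out its difference ran from -0.52 without control replicate 1 to -0.059 without NaCl replicate 3. No p-value was adjusted, and none of the 3 tests can reach the threshold at this size.

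**Figure D4:**
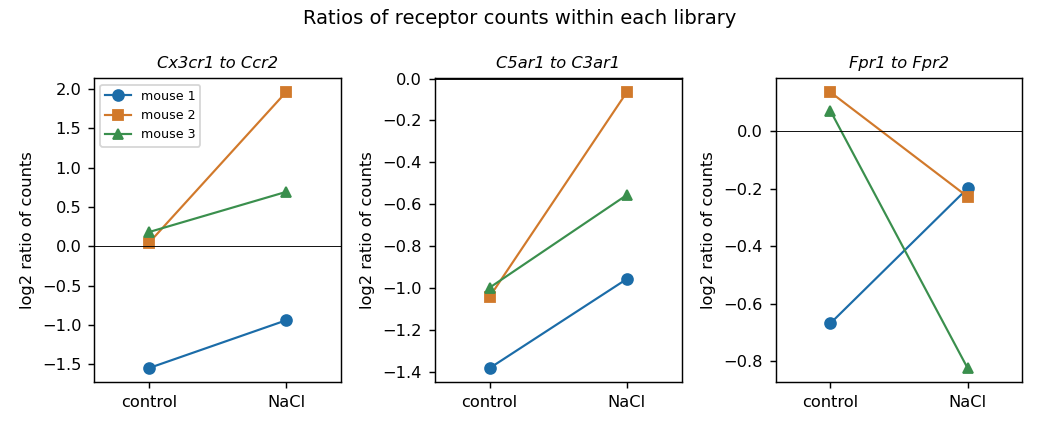
Log2 ratio of raw counts of receptor pairs within each library (y axis), control and NaCl joined for each mouse. For *Cx3cr1* to *Ccr2* and *C5ar1* to *C3ar1* all lines go up, and mouse 1 lies below mice 2 and 3 in both.

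Other receptors of the same families were examined as lists. Of 20 other chemokine receptors 12 were tested, and the other 8 had a total of at most 5 counts each. None (0) passed in edgeR without the block, against 0.478% higher and 0.176% lower of all genes. In that fit 3 of the 12 had an unadjusted p under 0.05, against 12.6% of all genes. The median log2 fold change of the 12 was -0.34, against -0.0065 over all genes tested. Blocking on the mouse called 1 of the 12 higher and 1 lower, against 4.6% and 4.3% of all genes. *Ccrl2*, which binds chemerin without known signalling, averaged 8.29 ± 0.687 CPM without and 13.1 ± 0.125 CPM with NaCl (log2 fold change 0.66 with the block, adjusted p = 0.0139). *Ccr1l1*, a close relative of *Ccr1*, was lower, at 1.49 ± 0.788 and 0.368 ± 0.318 CPM, and had 0 counts in NaCl replicate 3 (adjusted p = 0.0351 with the block). Of 20 other chemoattractant receptors 11 were tested. Without the block 0 passed in edgeR and 3 had an unadjusted p under 0.05, against the same shares of all genes. With the block 0 of the 11 were higher and 2 were lower, against 4.6% and 4.3% of all genes. *Gpr35* averaged 5.98 ± 0.283 CPM without and 2.45 ± 0.780 CPM with NaCl (log2 fold change -1.36 with the block, adjusted p = 0.000905), and the oxysterol receptor gene *Gpr183* was at 42.4 ± 4.83 and 31.4 ± 2.77 CPM (log2 fold change -0.42, adjusted p = 0.0441).

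Of 17 genes encoding ligands of the 9 receptors, 13 were tested. The transcripts of *Cxcl12*, of the chemerin gene *Rarres2* and of the C5 gene *Hc* summed to 9, 2 and 3 counts over the 6 libraries, under the minimum for the test. In edgeR without the block 0 passed, against 0.478% higher and 0.176% lower of all genes. In that fit 2 of the 13 had an unadjusted p under 0.05, against 12.6% of all genes. With the block 1 of the 13 was higher and 1 lower, against the same 4.6% and 4.3% of all genes. *C3*, the source of C3a, averaged 21.8 ± 2.76 CPM without and 36.2 ± 6.25 CPM with NaCl, and rose with the block (log2 fold change 0.73, adjusted p = 0.000643). *Ccl7*, a ligand of both Ccr1 and Ccr2, was at 23.4 ± 6.28 and 9.69 ± 4.11 CPM, and fell with the block (log2 fold change -1.28, adjusted p = 0.000177). The fractalkine gene *Cx3cl1* was called in neither fit, nor was *Ccl2*, at log2 fold changes of 0.072 and 0.0037 without the block. *Anxa1*, whose product binds Fpr2, averaged 1693 ± 21.7 CPM without and 1805 ± 199 CPM with NaCl (log2 fold change 0.092).

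Of 34 genes of signalling and desensitization behind these receptors 33 were tested, with a median log2 fold change of 0.068 in either fit. At an unadjusted p under 0.05 without the block, 12 of the 33 passed in edgeR, against 12.6% of all genes. Past the adjusted threshold in that fit, only *Plcb4* was higher in NaCl and none was lower, against 0.478% and 0.176% of all genes. This phospholipase C gene had 4.78, 7.34 and 8.42 CPM in mice 1, 2 and 3 without NaCl and 17.9, 48.04 and 41.7 CPM with it. Its libraries did not overlap (log2 fold change 2.36, SE 0.35, edgeR adjusted p = 0.0276). With the block 6 of the 33 were higher and 4 lower, against 4.6% and 4.3% of all genes. The other higher ones were the G protein subunit gene *Gna15*, the phospholipase gene *Plcb2*, the arrestin genes *Arrb1* and *Arrb2* and the GTPase gene *Rac2*, with log2 fold changes from 0.38 for *Arrb1* to 0.51 for *Plcb2*. The lower ones were the G protein subunit genes *Gnai3*, *Gng2*, *Gng5* and *Gng10*, with log2 fold changes from -0.81 for *Gng5* to -0.43 for *Gng2*. *Gnai2*, an inhibitory alpha subunit gene, averaged 868 ± 5.19 CPM without and 929.6 ± 216 CPM with NaCl and was called in neither fit.

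**Figure D5:**
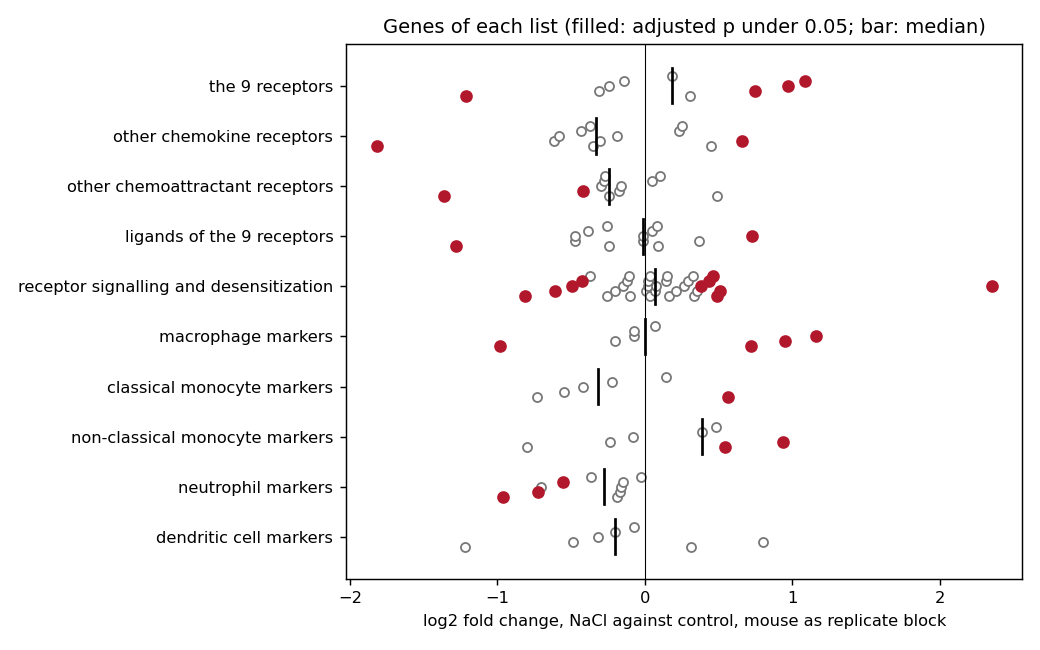
Log2 fold change, NaCl against control, from edgeR with the mouse as a replicate block (x axis) for each tested gene of the receptor, ligand, signalling and marker lists other than the lymphocyte, erythroid and stromal markers, filled where the adjusted p is under 0.05, with a bar at the list's median. Among the 9 receptors 3 filled points lie right of 0 and 1 lies left, and the filled point farthest right is *Plcb4*.

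For each receptor that passed with the block, the 3 genes with the most similar profile over the 6 libraries were sought among 9917 genes, by the root mean square difference of centred log2 CPM. For *Cx3cr1* these were a gene without a symbol (ENSMUSG00000120732), *Tmem119* and *Oip5*, with differences from 0.0799 to 0.1002. *Tmem119*, known as a marker of microglia, averaged 5.82 ± 1.64 CPM without and 8.81 ± 0.562 CPM with NaCl. For *Cxcr4* they were *Tlr9*, *Dpysl2* and *Malat1* (0.209 to 0.263), for *Ccr1* *Cibar1*, *Gm6377* and *Cd244a* (0.125 to 0.189), and for *Cmklr1* *Dusp18*, *Cdc20* and *Nfkbiz* (0.146 to 0.193). These names describe the 6 libraries only.

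Markers of other cells were read beside the receptors, and their calls with the block stand against 4.6% higher and 4.3% lower of all genes. Calls without the block stand against 0.478% higher and 0.176% lower. The 6 classical monocyte markers summed to between 84.1 and 130 CPM in control and between 109 and 116 CPM in NaCl libraries, and with the block 1 of them, *F13a1*, was higher. The 7 non-classical monocyte markers, a class that also carries *Cx3cr1*, summed to between 257 and 382.2 CPM in control and between 382.1 and 534 CPM in NaCl. With the block 2 of these 7 were higher, *Spn* and *Itgal*, whereas the more restricted *Ace* and *Treml4* had at most 6 and 98 counts in any library and were not called. *Treml4* was lower in 3 of 3 mice (log2 fold change -0.80 with the block, adjusted p = 0.0762), and *Cd300e* and *Nr4a1* had log2 fold changes of -0.23 and -0.080 with the block and were not called. *Pou2f2* was higher in 3 of 3 mice (log2 fold change 0.39 with the block, adjusted p = 0.0539) and was not called. *Ace* stood at 0.48 with the block on its few counts, and the median of the 7 was 0.39. Most of the sum was *Itgal*, whose mean was 245 CPM in control and 353 CPM in NaCl. The 10 neutrophil markers, a cell type rich in *Fpr1*, summed to between 328 and 601 CPM in control and between 326 and 421 CPM in NaCl, with 3 lower with the block. *Ly6g* had at most 13 counts in any library. Of 7 lymphocyte and 6 erythroid or stromal markers, 2 and 1 were tested and none of these was called in either fit. The tested lymphocyte markers summed to between 1.14 and 1.63 CPM in control and between 2.18 and 2.68 CPM in NaCl, and the tested stromal or erythroid marker lay between 0 and 1.82 CPM. Of the 8 macrophage markers, *Csf1r*, *Lyz2* and *Cd14* were higher and *Mrc1* was lower with the block, and *Lyz2* and *Cd14* also passed without it. Their sum was between 15013 and 16887 CPM in control and between 23957 and 31399 CPM in NaCl, and most of it was *Lyz2*, with means of 9817 and 19148 CPM. *Adgre1*, *Cd68* and *Fcgr1* had log2 fold changes of -0.20, -0.075 and -0.077 with the block and were not called. The part of these cell types in the receptor values was not tested.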

How the data were processed

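RNA was measured in BMDMs of 3 mice, each without and with NaCl (6 libraries). Single-end 75 bp reads were trimmed by the authors with fastp 0.20.0 and aligned to mm10 with STAR 2.7.10b. The authors deposited raw counts per gene and a normalized signal, which is each count over a size factor from DESeq2 1.40.2. The methods name GENCODE vM32, an annotation of another build than mm10, so genes are placed by chromosome only, and the printed promoter positions refer to RefSeq on GRCm38.p6. Symbols came from the authors' table. The raw counts were used throughout, and each value of the deposited signal equalled the raw count over 1 factor per library.

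The quasi-likelihood test of edgeR 4.0.16 (glmQLFit, glmQLFTest, TMM) was run on genes whose counts summed to 10 or more, with treatment as its only term. The standard error is the log2 fold change over the square root of F. The mouse numbers pair the libraries, because the labels give the same animal. Deviations from group means of same-numbered libraries correlated across genes at 0.426, 0.151 and 0.217, and of other pairs between -0.35 and 0.124. Alternatives were the replicate block, DESeq2 1.42.0, limma-voom (limma 3.58.1), other scalings, filters, thinning and left-out libraries. CPM used TMM-scaled sizes, and log2 CPM a prior count of 2. Ratios used an added count of 0.5. Exonic lengths and shared 75-base windows came from GENCODE M21 by gene identifier. The scripts were tested on simulated data. R 4.3.3 and Python 3.11.15 were used.

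The 9 genes were given by name, and the members and lists were chosen with earlier results of these data known. The rule for named genes took all 9 receptors, genes of the other lists past the threshold in edgeR without or with the block, and 3 genes of similar profile with a mean of at least 50 counts. Genes named outside this rule were chosen after their values were seen. The edgeR p-values and intervals rest on 3 mice, but with a variance for each gene that is moderated over all genes tested. They therefore do not measure the spread of the gene in these mice alone, and can be narrower or wider than it. In the blocked fit, differences between mice are also taken out. Depth per library is given with the results.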

Additional observations from a re-analysis of the deposited data

How the results depend on the processing

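Over 21 alternatives, 3 of them chosen after the data were seen (the block with thinning, with median-ratio size factors and with total count scaling), *Cx3cr1*, *Cxcr4*, *Cmklr1*, *C5ar1*, *C3ar1* and *Ccr1* kept their direction. The number of receptors higher was 0, against 3 with the replicate block, in DESeq2, in DESeq2 with the replicate block, with a minimum total count of 1, with the block and each mouse left out, and in the 3 later alternatives, and 1 (*Cx3cr1*) after thinning. With single libraries left out it lay between 0 and 1. The number lower was 1, against 0 with total count scaling and with filterByExpr, between 0 and 1 with single libraries left out, and 2 with the block and mouse 2 left out. The cause was not tested. The log2 fold change of *Ccr2*, 0.016, turned to -0.25 with the replicate block and in DESeq2 with it, -0.029 after thinning, -0.27 in limma-voom, -0.53 and -0.37 with the block and mouse 1 or 3 left out, and -0.25, -0.24 and -0.24 in the later alternatives, and ran from -0.95 to 0.54 with single libraries left out. That of *Fpr1*, -0.22, turned to 0.029 and 0.052 with the block and mouse 2 or 3 left out and ran from -0.47 to 0.019 with single libraries left out, and that of *Fpr2*, 0.13, from -0.038 to 0.26. After thinning these were -0.43 for *Fpr1* and 0.43 for *Fpr2*, and with the block and thinning -0.35 and 0.42. Over all genes, 76 were higher and 28 lower, against 732 and 684 with the block, 245 and 155 in DESeq2, 452 and 354 in DESeq2 with the block, and 362 and 300 with a minimum total count of 1. They were 67 and 20 with total count scaling, 76 and 24 with filterByExpr and 59 and 19 after thinning. With single libraries left out, 8 to 123 genes were higher and 0 to 46 lower. With the block and mouse 1, 2 or 3 left out, the counts were 469 and 417, 758 and 661, and 715 and 585. The number of genes tested differed between these fits, from 12057 with filterByExpr to 24752 with a minimum total count of 1. No scaling moved the median of all genes by more than 0.0102 on the log2 scale. The differences in log2 ratio within mice (replicate block) averaged 0.61, 1.01 and -0.26 for *C5ar1* to *C3ar1*, *Cx3cr1* to *Ccr2* and *Fpr1* to *Fpr2*, with exact sign-flip p-values of 0.25, 0.25 and 0.75, where 0.25 is the smallest that 3 mice allow. Depth limits *Fpr1* and *Fpr2* most.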
